A study of Mus musculus with 22 samples.

Results

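The genes described here are 10 components of the circadian clock, chosen by name from the deposited tables: Arntl (BMAL1), Cry1, Cry2, Per1, Per2, Per3, Nr1d1, Nr1d2, Dbp and Tef. All 10 were found in each table, which held 37669 genes for large Pro-B cells, 37851 for large Pre-B cells and 26095 for small Pre-B cells. The set was proposed with the genotype comparisons of these data known, so the differences between genotypes in its members are given as a description with no test.

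Cells were sorted from the bone marrow of adult tet-LIN28B mice, which carry a doxycycline-inducible, Flag-tagged human LIN28B cDNA at the Col1a locus together with the rtTA-m2 transactivator at Rosa26, and of littermate controls that carry Rosa26 rtTA-m2 alone. Every mouse of both genotypes was given chow with doxycycline at 200 mg/kg over 10 days, so the controls share the transactivator and the drug. LIN28B binds RNA in fetal progenitors, where it blocks let-7 maturation. The transactivator is driven from Rosa26, which is active in most cell types, so induction was not limited to B cells. Pro-B cells were taken as cKIT+ and Pre-B cells as cKIT- within a gate that included CD93+ and IgM-, with size read from forward scatter, and poly-A RNA was sequenced. The large Pro-B stage had 5 tet-LIN28B and 4 control libraries, the large Pre-B stage 4 and 3, and the small Pre-B stage 3 and 3, each from 1 mouse. Of the 15 mice, 7 (4 tet-LIN28B and 3 control) gave libraries at both large stages, and these carry the same replicate number at each.

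In the mammalian clock, BMAL1 and CLOCK bind E-boxes and switch on the Per, Cry and Nr1d genes. PER and CRY proteins then repress BMAL1 and CLOCK, and the REV-ERB receptors encoded by Nr1d1 and Nr1d2 repress Arntl. Dbp and Tef encode PAR bZIP activators that act on D-boxes, and in many mouse tissues Dbp and Nr1d1 transcripts peak about when Arntl is low, so that the time at which a mouse is killed sets the level of each gene. The labels give no time of day.

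Promoter sequences from RefSeq (GRCm38.p6, 250 bases before to 50 after a start site) were matched for 9 of the 10 members, in 12 windows. Shown are those of the genes whose groups stood apart at some stage and on which the results below turn. Capitals mark, on either strand, the E-box CACGTG, the D-box (TTATGTAA, TTACGTAA, TTACATAA or TTATATAA) and the receptor half-site AGGTCA, the last being the core that REV-ERB and ROR receptors recognise. No motif of one kind lies within another.
Arntl promoter, chr7:113207261-113207560, plus strand: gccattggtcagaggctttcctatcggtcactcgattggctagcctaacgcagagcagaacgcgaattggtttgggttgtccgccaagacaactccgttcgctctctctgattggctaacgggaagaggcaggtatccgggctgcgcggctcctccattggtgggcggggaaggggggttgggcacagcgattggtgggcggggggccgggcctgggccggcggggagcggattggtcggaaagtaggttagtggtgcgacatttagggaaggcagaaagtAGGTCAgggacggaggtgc
Nr1d1 promoter, chr11:98775328-98775627, minus strand: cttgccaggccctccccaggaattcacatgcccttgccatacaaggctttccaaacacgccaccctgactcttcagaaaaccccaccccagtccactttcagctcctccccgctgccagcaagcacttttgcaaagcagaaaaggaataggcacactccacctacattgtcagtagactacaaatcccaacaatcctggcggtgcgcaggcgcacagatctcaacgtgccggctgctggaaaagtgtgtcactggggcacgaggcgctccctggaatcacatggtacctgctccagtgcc
Nr1d2 promoter, chr14:18239057-18239356, minus strand: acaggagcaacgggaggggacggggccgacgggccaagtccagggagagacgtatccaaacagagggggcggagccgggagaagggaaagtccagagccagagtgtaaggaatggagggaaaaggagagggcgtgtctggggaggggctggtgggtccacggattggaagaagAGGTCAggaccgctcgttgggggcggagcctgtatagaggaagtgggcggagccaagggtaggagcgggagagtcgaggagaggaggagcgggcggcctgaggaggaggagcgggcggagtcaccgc
Per3 promoter, chr4:151044616-151044915, minus strand: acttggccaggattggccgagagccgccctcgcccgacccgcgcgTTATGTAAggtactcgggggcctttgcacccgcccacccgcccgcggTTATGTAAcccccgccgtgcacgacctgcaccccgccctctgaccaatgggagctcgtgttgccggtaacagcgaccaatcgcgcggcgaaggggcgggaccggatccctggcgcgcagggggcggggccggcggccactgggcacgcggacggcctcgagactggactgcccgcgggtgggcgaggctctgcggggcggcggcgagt
The Per3 window held 2 D-boxes, which 1.59% of the 32851 mouse promoter windows of this length hold at least once. Arntl (in the later of its windows), Nr1d2 and Per1 (in a window not shown) held a receptor half-site, found in 16.3% of all windows. The Nr1d1 window held none of the motifs. E-boxes were present in windows of Per1, Cry1 and Tef, against 7.15% of all windows. These are matches of letters only.

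Libraries held 13.9 to 51.0 M reads assigned to genes. The Lin28b row, a check of the labels, lay at 57.0 to 232 normalized counts in tet-LIN28B and 4.63 to 10.2 in control large Pro-B cells, at 41.9 to 175 and 9.92 to 28.8 in large Pre-B cells, and at 81.9 to 230 and 0 in small Pre-B cells. In large Pro-B cells, tet-LIN28B replicate 4 and control replicate 4 stood apart from the rest, with a median correlation with the other libraries of 0.88 each, against 0.91 to 0.94 for the others, and in large Pre-B cells control replicate 3 was lowest (0.92, against 0.94 to 0.95). Summed granulocyte and monocyte markers (10 genes) reached 6522 in control replicate 2 of large Pre-B cells and 1913 in control replicate 2 of small Pre-B cells, against 73.9 to 862 and 311 to 442 in the other libraries of those stages, and in large Pro-B cells they were 1072 to 1471 in tet-LIN28B and 1247 to 4665 in control libraries. Of 7 T cell markers, Cd3e was at 28.7 or less and Trac at 53.1 or less throughout. Lck, on the same list, was at 1814 to 3183 in large Pro-B, 2216 to 3633 in large Pre-B and 560 to 1035 in small Pre-B cells. Summed, the 7 lay at 831 to 1049 in tet-LIN28B and 567 to 816 in control small Pre-B cells. Each stage was normalized separately, so levels are compared within a stage unless stated per M (1e+06) reads.

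All 10 members passed the filter on low values (a normalized count of at least 10 in as many libraries as the smaller group) at all 3 stages. Genotypes differed at an adjusted p under 0.05 (limma, Benjamini-Hochberg over all genes) in 0% of 13776 genes in large Pro-B cells, 0.0565% of 14155 in large Pre-B cells and 14.4% of 14664 in small Pre-B cells. Of the members, 0, 0 and 2 were past that threshold at these stages, and both (Nr1d2 and Arntl) were lower in tet-LIN28B small Pre-B cells, the direction of 7.03% of all genes. Arntl was no longer past it without tet-LIN28B replicate 1 or 3 or control replicate 2 or 3, and DESeq2 on recovered reads also placed Per3 past it in large Pro-B cells. Of the small Pre-B calls 51.1% were higher in tet-LIN28B, or 40.3% with equal library totals. Since the set was proposed from these contrasts, nothing is read from those calls. In large Pro-B cells 394 genes had an unadjusted p under 0.05, and on reads recovered from the normalized counts edgeR called 0 genes and DESeq2 4. In normalized counts, all tet-LIN28B libraries lay above all controls for Per3 in large Pro-B cells (0.697% of all genes), for Nr1d1 in large Pre-B cells (3.59%) and for Nr1d1 in small Pre-B cells (17.7%). All lay below the controls for 3 members in small Pre-B cells, Nr1d2, Tef and Arntl (16.2% of all genes), and for no member at the large stages (0.602% and 2.87%).

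**Figure D1:**
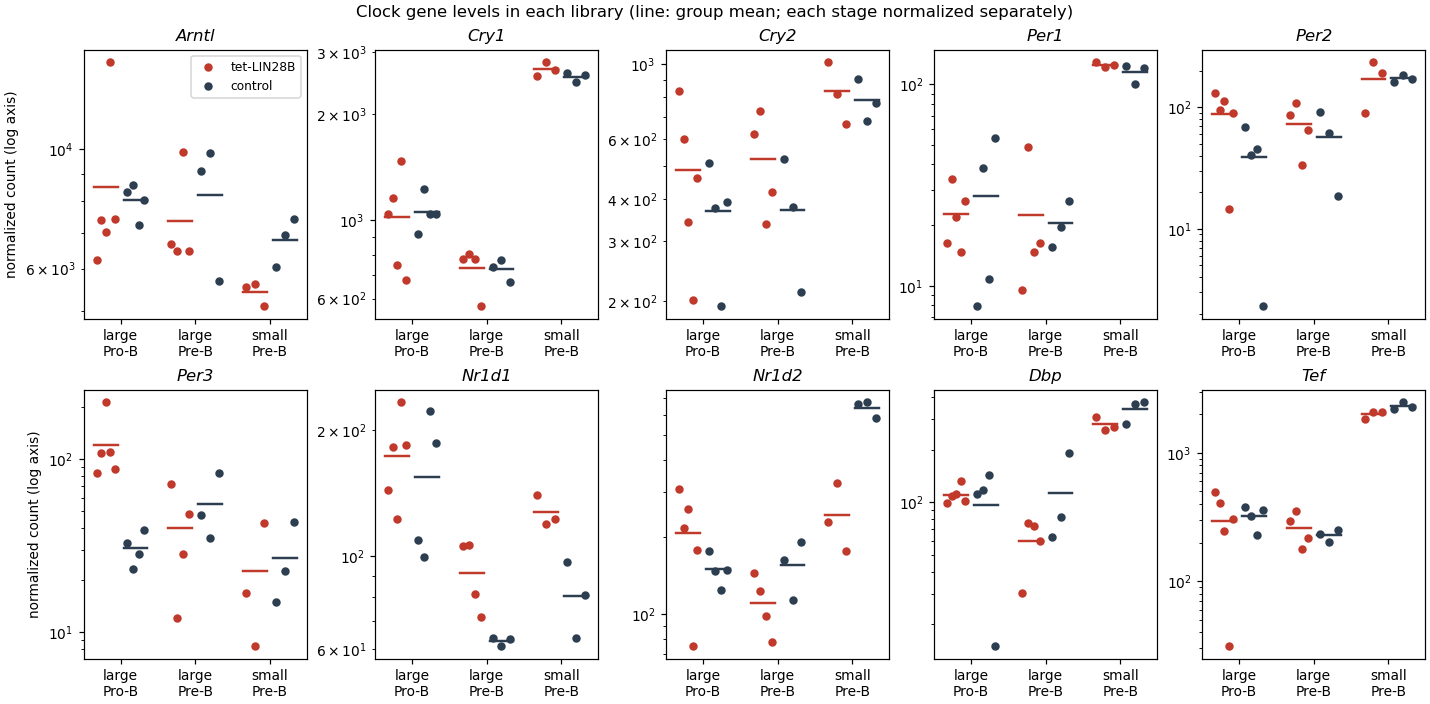
Normalized count (log axis) of each of the 10 clock genes in every library, with tet-LIN28B to the left of control at each stage and a line at the group mean. Nr1d2 sits at 176 to 325 in the 3 tet-LIN28B small Pre-B libraries and at 587 to 675 in the 3 controls.

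Arntl encodes BMAL1, the activator that pairs with CLOCK (chr7:113178471-113314126, plus strand). It was the most abundant member per kilobase of exon in every library of the large stages and in control small Pre-B cells. In the 3 tet-LIN28B small Pre-B libraries it was below Cry1, at 20.5, 20.9 and 19.4 against 21.4, 23.6 and 22.9 reads per kilobase and M reads. In small Pre-B cells its normalized counts were 5546, 5615 and 5102 in tet-LIN28B and 6054, 6927 and 7409 in control libraries. All 3 tet-LIN28B values lay below all 3 controls, with a log2 fold change of -0.32 ± 0.08 (SE). It was -0.34 and -0.28 without tet-LIN28B replicate 1 or 3, and -0.31 and -0.26 without control replicate 2 or 3. In large Pro-B cells, Arntl lay at 6222, 7386, 7017, 14541 and 7423 in tet-LIN28B and at 8326, 8601, 7223 and 8066 in control libraries. The value of 14541 is that of tet-LIN28B replicate 4, which stood apart over all genes. The other tet-LIN28B values overlapped the controls (log2 fold change 0.01 ± 0.24), and without replicate 4 it was -0.20. Large Pre-B cells had 6667, 6460, 9892 and 6468 in tet-LIN28B and 9123, 9867 and 5693 in control libraries, again with overlap.

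Cry1 and Cry2 encode the cryptochromes, which inhibit BMAL1 and CLOCK together with the PER proteins. Cry1 (chr10:85131700-85185054, minus strand) varied least of the members within a genotype at every stage. Its counts in small Pre-B cells were 2568, 2814 and 2676 in tet-LIN28B and 2616, 2466 and 2594 in control libraries, a log2 fold change of 0.07 ± 0.07. Its large Pre-B values were 779, 801, 778 and 570 in tet-LIN28B and 737, 774 and 670 in control libraries, and its large Pro-B values spanned 679 to 1477 in tet-LIN28B and 915 to 1226 in control libraries. The genotypes overlapped at all 3 stages.

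Cry2 (chr2:92403646-92434085, minus strand) had overlapping values in the genotypes at every stage, with log2 fold changes of 0.33 ± 0.42, 0.53 ± 0.34 and 0.08 ± 0.16 in order of development. Its libraries spread widely within a genotype in the large stages. Large Pre-B counts were 622, 726, 338 and 421 in tet-LIN28B and 523, 379 and 213 in control libraries. Each mouse with both large stages lay on the same side of its genotype mean at both, as described further on.

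The Per genes encode the period repressors, which bring the cryptochromes to BMAL1 and CLOCK. Per3 (chr4:150997018-151044707, minus strand) had the largest log2 fold change of the 10 members over the 3 stages. In large Pro-B cells it lay at 82.7, 108, 214, 110 and 87.8 in tet-LIN28B and at 32.8, 23.1, 28.5 and 39.1 in control libraries. Every tet-LIN28B library was above every control, the mean was 3.90 times as high and the log2 fold change was 1.86 ± 0.42. It stayed between 1.64 and 1.99 when any 1 library was left out or both libraries that stand apart were.

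In large Pre-B cells, all from mice that also gave large Pro-B cells, Per3 had 71.9, 12.1, 28.5 and 48.3 in tet-LIN28B and 47.5, 35.1 and 83.2 in control libraries. The genotypes overlapped there and the log2 fold change was -0.62 ± 0.59, of the opposite sign. The difference between the stages was not tested. Small Pre-B libraries held 8 to 47 reads of Per3, and its counts of 16.9, 8.3 and 42.5 in tet-LIN28B and 14.9, 22.7 and 43.2 in control libraries did not separate.

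Per2 (chr1:91415977-91459351, minus strand) ran from 14.6 to 130 in tet-LIN28B and from 2.3 to 68.9 in control large Pro-B cells. Its lowest value in each genotype was the library that stood apart. The log2 fold change was 1.50 ± 0.92 over all libraries, between 0.51 and 2.05 with any 1 library left out, and the groups overlapped. Per2 in small Pre-B cells had 88.7, 234 and 192 in tet-LIN28B and 162, 185 and 172 in control libraries, so that the spread lay in the tet-LIN28B mice. Per1 (chr11:69095108-69109965, plus strand), which also responds quickly to glucocorticoids, had 129, 122 and 125 in tet-LIN28B and 124, 101 and 120 in control small Pre-B cells. The log2 fold change was 0.13 ± 0.20. In the large stages Per1 rested on 7 to 85 reads a library and its genotypes overlapped.

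**Figure D2:**
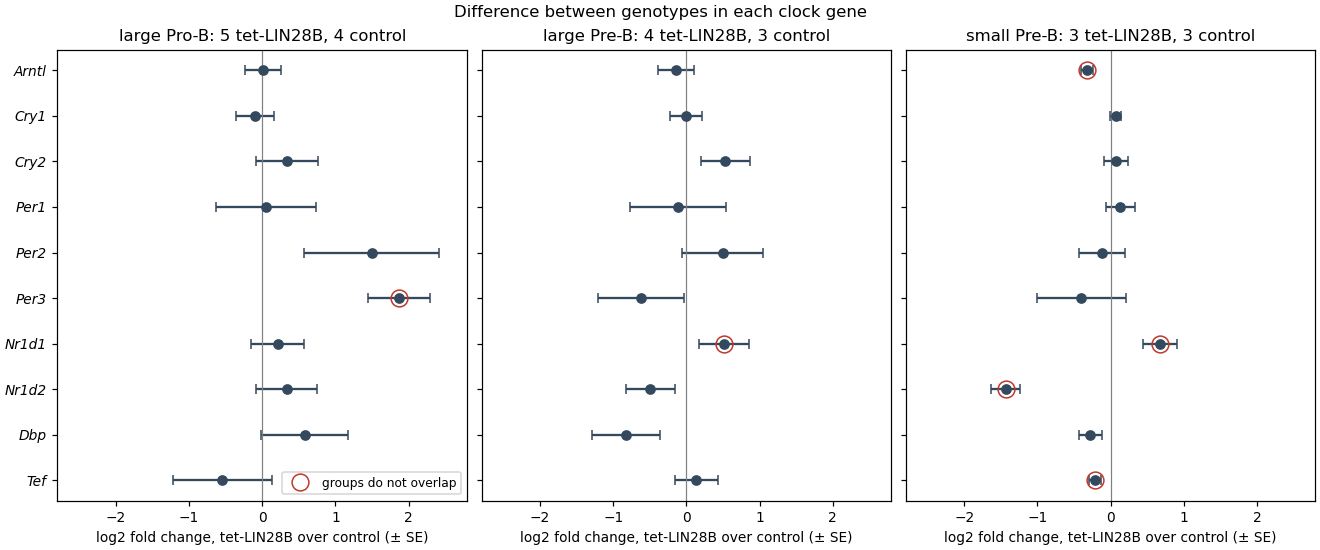
Log2 fold change (tet-LIN28B over control, ± SE of the limma fit) of each clock gene in the 3 stages, with a ring where the groups do not overlap. Nr1d1 lies right of 0 at all stages (0.21, 0.52 and 0.67), and Nr1d2 at -1.44 in small Pre-B cells.

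Nr1d1 and Nr1d2 encode the heme receptors REV-ERBα and REV-ERBβ, which repress Arntl at receptor half-sites. The genes differed in opposite directions in small Pre-B cells. Nr1d2 (chr14:18204056-18239106, minus strand) lay at 230, 325 and 176 in tet-LIN28B and at 663, 675 and 587 in control libraries. The highest tet-LIN28B library was well under the lowest control, the mean was 0.38 of that in controls, and the log2 fold change of -1.44 ± 0.20 lay between -1.66 and -1.23 in the 15 alternatives. In bulk RNA such a difference can come from fewer cells with the transcript or from less of it per cell, which cannot be told apart.

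No such gap was present in large Pro-B cells, where tet-LIN28B libraries held 309, 217, 259, 75.01 and 178 and control libraries 177, 148, 125 and 149. Only tet-LIN28B replicate 4, which stood apart, was below the controls there. Large Pre-B cells gave 145, 123, 98.4 and 78.2 in tet-LIN28B and 163, 113 and 192 in control libraries, with overlap and a log2 fold change of -0.49 ± 0.33.

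Nr1d1 (chr11:98767932-98775377, minus strand) was higher in tet-LIN28B cells at both Pre-B stages. Small Pre-B cells had 140, 119 and 123 in tet-LIN28B and 96.8, 63.8 and 80.8 in control libraries. In large Pre-B cells it lay at 106, 107, 81.2 and 71.8 in tet-LIN28B and at 63.7, 61.0 and 63.4 in control libraries. In normalized counts the groups did not overlap at either stage, with log2 fold changes of 0.67 ± 0.23 in small and 0.52 ± 0.35 in large Pre-B cells. Per M reads the large Pre-B groups did overlap, at 4.56 to 6.31 in tet-LIN28B and 3.71 to 4.65 in control libraries. The gap at that stage thus depended on the normalization. Large Pro-B cells had 144, 182, 123, 233 and 184 in tet-LIN28B and 110, 99.5, 222 and 186 in control libraries, with overlap.

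The 3' end of Nr1d1 shares 263 exon bases (8.55% of its exons) with Thra, a thyroid hormone receptor gene on the other strand, and the library kit does not mark strand. Thra was higher in tet-LIN28B small Pre-B cells, with 372, 364 and 372 against 192, 205 and 186 in control libraries (log2 fold change 0.92 ± 0.14, limma adjusted p = 0.00241, between 4.63e-07 and 0.0122 in the alternatives). Thra in large Pre-B cells had 116, 162, 75.1 and 112 in tet-LIN28B and 40.4, 85.2 and 73.0 in control libraries (log2 fold change 0.82 ± 0.39, adjusted p = 0.747). The part of Thra reads in the Nr1d1 values was not tested.

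The ratio of Nr1d1 to Nr1d2 reads compares both genes within a library and needs no normalization. In small Pre-B cells it was 0.610, 0.367 and 0.697 in tet-LIN28B and 0.146, 0.0946 and 0.138 in control libraries. In large Pre-B cells it was 0.835 ± 0.078 (SD, n = 4) in tet-LIN28B and 0.420 ± 0.107 (n = 3) in control libraries. The genotypes stood apart at both Pre-B stages, but overlapped in large Pro-B cells (1.18 ± 1.10, n = 5, and 1.08 ± 0.55, n = 4). It is made from the same values as above and was not tested.

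**Figure D3:**
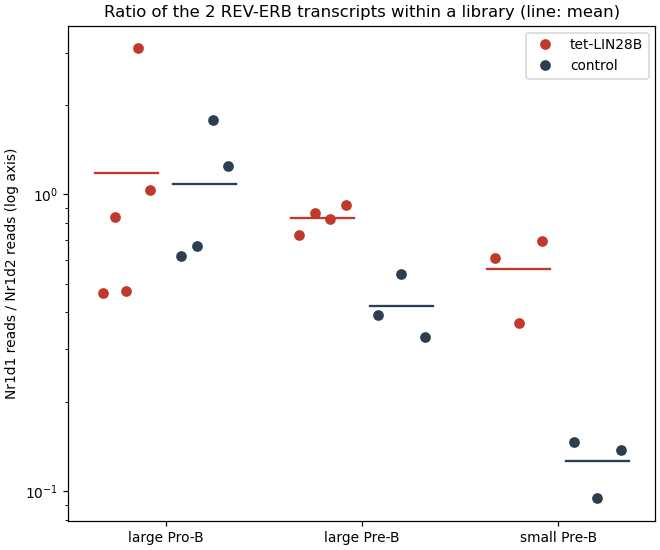
Ratio of Nr1d1 to Nr1d2 reads within each library (log axis), tet-LIN28B left of control at each stage, with a line at the mean. The lowest tet-LIN28B small Pre-B library, 0.367, is above the highest control, 0.146.

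Dbp and Tef encode PAR bZIP factors whose transcripts are outputs of the clock, and Dbp is among its most strongly cycling targets in liver. Dbp (chr7:45705100-45710203, plus strand) overlapped between genotypes at all 3 stages. Small Pre-B cells had 308, 260 and 272 in tet-LIN28B and 283, 367 and 377 in control libraries, a log2 fold change of -0.28 ± 0.16. Large Pre-B libraries lay at 30.0, 76.6, 73.4 and 59.7 in tet-LIN28B and at 63.7, 82.4 and 193 in control libraries. One large Pro-B library, control replicate 4, held 14.9 against 99.1 to 144 in the other 8. Of the Dbp exon bases 18.0% also belong to Sphk2 on the other strand, and Sphk2 overlapped between genotypes in the large stages. In small Pre-B cells Sphk2 had 2355, 2307 and 2314 in tet-LIN28B and 2552, 2598 and 2408 in control libraries, without overlap. Its log2 fold change there was -0.11 ± 0.07 (adjusted p = 0.310, limma). The part of Sphk2 reads in the Dbp values was not tested.

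Tef (chr15:81802673-81826863, plus strand) lay at 1838, 2098 and 2064 in tet-LIN28B and at 2205, 2487 and 2269 in control small Pre-B cells. The groups did not overlap and the log2 fold change was -0.21 ± 0.08, smaller in size than those of Arntl and Nr1d2. In large Pro-B cells tet-LIN28B replicate 4 had 31.1, against 246 to 496 in the other tet-LIN28B libraries and 230 to 380 in controls. Its large Pre-B values were 296, 355, 177 and 215 in tet-LIN28B and 234, 202 and 252 in control libraries, with overlap.

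A list of 22 other clock genes (partners, receptors, kinases, ubiquitin ligases and clock-controlled regulators) was read from the same fits. The list was chosen with earlier results of these data known, so its counts and adjusted p-values are a description. Of those tested, 0 of 16 passed in large Pro-B cells, 0 of 17 in large Pre-B cells, and 3 of 16 in small Pre-B cells, where 14.4% of all genes passed. There 2 were higher and 1 lower, against 7.34% and 7.03% of all genes. The median log2 fold change of the 16 was -0.08 in small Pre-B cells, beside -0.0024 over all genes.

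Usp2 encodes a deubiquitinase and is a clock-controlled gene in several mouse tissues. It rose in small Pre-B cells, with 88.7, 138 and 107 in tet-LIN28B and 39.1, 47.6 and 56.4 in control libraries. The log2 fold change was 1.20 ± 0.27 (limma adjusted p = 0.0174), with adjusted p = 0.0575 without tet-LIN28B replicate 2 and 0.0660 without control replicate 1. In large Pro-B and large Pre-B cells Usp2 overlapped between genotypes.

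Bhlhe41 encodes DEC2, an E-box repressor. It had 486, 544 and 323 in tet-LIN28B and 311, 274 and 233 in control small Pre-B cells, a log2 fold change of 0.70 ± 0.20 (limma adjusted p = 0.0450). Btrc, a ubiquitin ligase subunit that takes part in PER turnover, had 3977, 4235 and 4545 in tet-LIN28B and 4757, 5076 and 5511 in control libraries, a log2 fold change of -0.27 ± 0.08 (adjusted p = 0.0477). Both were close to the threshold. Each was past it only with 1 of the 6 single libraries left out, tet-LIN28B replicate 3, and the adjusted p (limma) without another library was 0.0701 to 0.147 for Bhlhe41 and 0.0589 to 0.177 for Btrc.

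Clock, the partner of BMAL1, had log2 fold changes of opposite sign at the first and last stage. It passed at neither with limma on the deposited normalized counts and all libraries. In large Pro-B cells it had 150, 103, 243, 114 and 162 in tet-LIN28B and 81.3, 86.4, 37.7 and 20.7 in control libraries, without overlap (log2 fold change 1.58 ± 0.49, limma adjusted p = 0.999). In small Pre-B cells it had 193, 280 and 206 in tet-LIN28B and 354, 329 and 305 in control libraries, also without overlap (-0.55 ± 0.17, adjusted p = 0.0609). At that stage Clock was past the threshold with DESeq2 on recovered reads, with equal library totals and without tet-LIN28B replicate 2, in each case lower in tet-LIN28B. Nfil3, a repressor at D-boxes, likewise had 26.9 to 120 in tet-LIN28B and 4.60 to 24.8 in control large Pro-B cells (1.73 ± 0.64, adjusted p = 0.999), and 68.8 to 116 and 114 to 187 in small Pre-B cells (-0.68 ± 0.27, adjusted p = 0.121).

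The remaining named partners did not pass at any stage. Rora, the ROR activator that competes with the REV-ERBs for half-sites, was low (0 to 14.5 in tet-LIN28B and 7.57 to 22.3 in control small Pre-B cells). In large Pre-B cells it had 4.74 to 26.3 in tet-LIN28B and 29.7 to 76.2 in control libraries (log2 fold change -1.94 ± 0.67, limma adjusted p = 0.747). Bhlhe40, which encodes DEC1, and Ciart, a repressor of BMAL1 and CLOCK, had log2 fold changes of 0.13 ± 0.32 and 0.26 ± 0.32 in small Pre-B cells. Npas2, a paralog of Clock, was at 6.71 or less in the large stages and was not tested.

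**Figure D4:**
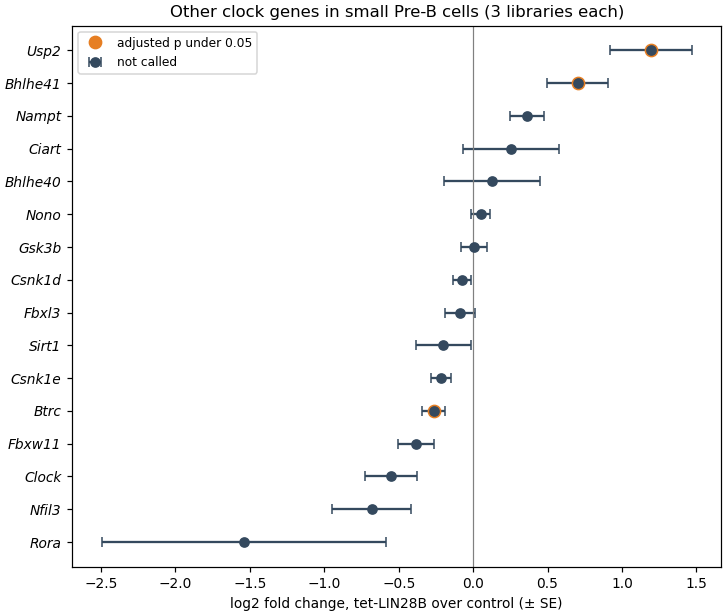
Log2 fold change (tet-LIN28B over control, ± SE, 3 libraries each) in small Pre-B cells of the 16 other clock genes tested. Usp2 at 1.20 and Bhlhe41 at 0.70 (higher) and Btrc at -0.27 (lower) are those with an adjusted p under 0.05.

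Glucocorticoids follow the time of day and stress, and immediate early genes the handling of cells, so both lists were read beside the clock genes. They too were chosen with earlier results of these data known. Of 7 glucocorticoid-induced genes tested in small Pre-B cells 1 was higher, Tsc22d3 (GILZ), with 16234, 17090 and 18318 in tet-LIN28B and 11732, 13512 and 15663 in control libraries. Its log2 fold change was 0.34 ± 0.10 (limma adjusted p = 0.0409, between 0.0123 and 0.133 in the alternatives). Of 15 immediate early genes 1 was higher, Egr3 (1.27 ± 0.37, adjusted p = 0.0453, between 0.0158 and 0.159). With single libraries left out, Tsc22d3 passed only without control replicate 3 (0.0171) and Egr3 only without tet-LIN28B replicate 2 (0.0241). None of either list passed in the large stages. In large Pro-B cells 1 of 13 immediate early genes tested had a positive log2 fold change, with a median of -0.46 beside 0.02 over all genes. In large Pre-B cells 6 of 14 had one, with a median of -0.14 beside -0.02. The medians were not tested. Members of other lists also moved in small Pre-B cells: 4 of 15 cell cycle genes were higher, 3 of 6 stage markers (Cd38, Il2ra and Il7r) lower, and of 7 mature B and plasma cell markers 3 (Cr2, Fcer2a and Xbp1) higher and 2 (Prdm1 and Sdc1) lower in tet-LIN28B, where 7.34% of all genes were higher and 7.03% lower. Erythroid markers summed to 147 to 176 in tet-LIN28B and 49.8 to 101 in control libraries, with 2 of 4 tested (Hba-a2 and Hbb-bs) higher. The part of these in the values of the clock genes was not tested.

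The 7 mice with libraries at both large stages allow a check of whether the level of a gene recurs in a mouse. For each member the deviation of a library from the mean of its genotype was taken at each stage and correlated over the 7 mice. Cry2 deviated most alike (Pearson r = 0.82, Spearman rho = 0.79), on the same side of the mean in 7 of 7 mice. Its counts in large Pro-B cells were 836, 602, 342 and 202 in the 4 tet-LIN28B mice and 511, 377 and 193 in the 3 control mice, and in large Pre-B cells of the same mice 622, 726, 338 and 421, and 523, 379 and 213. Dbp followed (r = 0.73, rho = 0.75, 5 of 7 mice on the same side), then Nr1d2 (r = 0.59, rho = 0.50), Tef (0.46 and 0.61) and Per1 (0.42 and 0.43).

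The 2 mice farthest from the median in large Pro-B cells were then left out, chosen for each gene. Over the other 5, r was 0.83 for Cry2, 0.94 for Dbp and 0.39 for Tef, whereas it was -0.28 for Nr1d2 and -0.13 for Per1. Over all 7 mice r was 0.11 for Per2, -0.06 for Arntl, -0.16 for Nr1d1, -0.22 for Per3 and -0.56 for Cry1. Without the 2 farthest, r was 0.45 for Per2, 0.26 for Arntl, 0.84 for Nr1d1, 0.36 for Per3 and 0.39 for Cry1. These mice were dropped by the values being correlated, and r over all genes was not taken in that way. Nothing is therefore read from the change in r. The median over the 10 members was 0.26, against 0.34 over the 12898 genes tested at both stages, and 5 members lay above that median. The 2 libraries of a mouse share its tissue, sort and genotype, and the correlations are a description with no test. Without the mice of tet-LIN28B replicate 4 and control replicate 3, the medians over 5 mice were 0.68 for members and 0.59 for all genes. There r was 0.96 for Dbp, 0.86 for Cry2, 0.86 for Tef, 0.81 for Nr1d1 and 0.78 for Cry1. It was 0.58 for Nr1d2, 0.53 for Per1, 0.19 for Arntl, 0.18 for Per2 and -0.22 for Per3. For Dbp and Nr1d1 these are the same 2 mice as the farthest ones above, so this is no second check. Their r differs only because deviations were taken here from genotype means over the 5 mice.

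**Figure D5:**
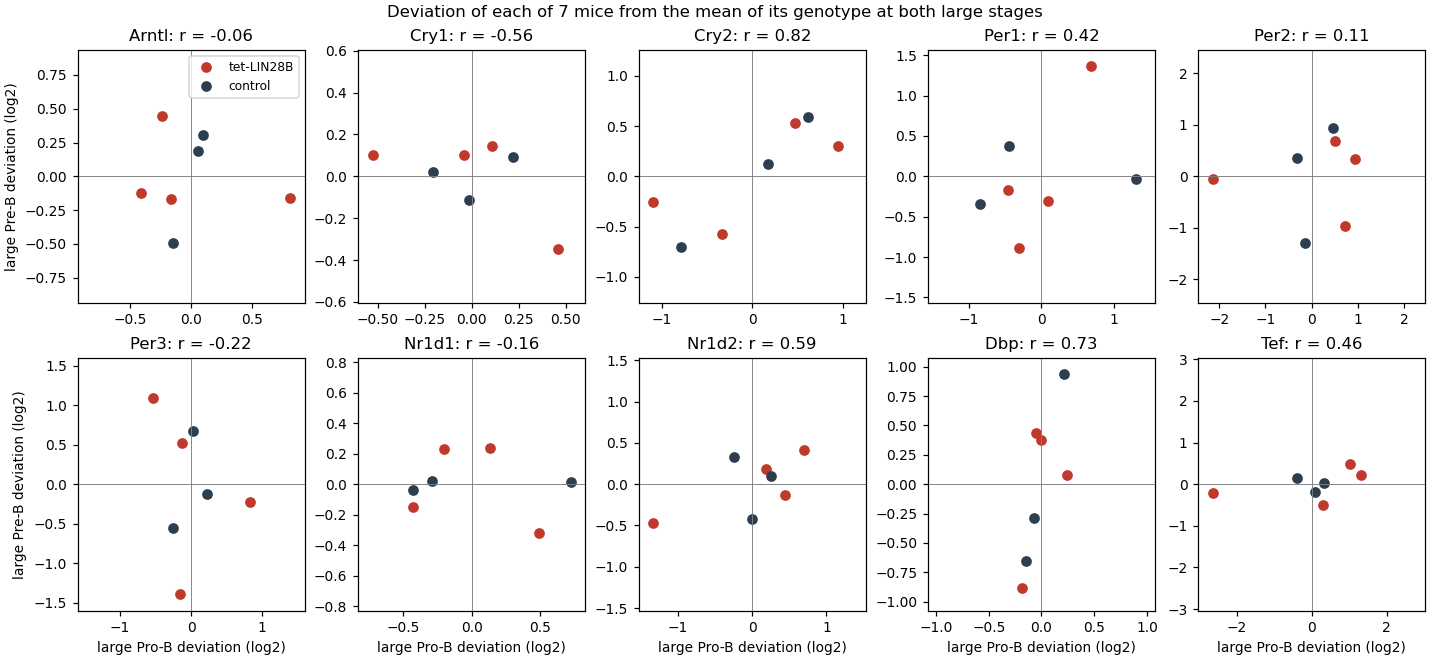
Deviation of each of 7 mice from the mean of its genotype (log2 normalized count + 1) in large Pro-B cells (x axis) and large Pre-B cells (y axis), 1 panel a gene. Cry2 lies along a rising line (r = 0.82), whereas r for Cry1 is -0.56 over all 7 mice and 0.39 without the 2 farthest.

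Members varied between mice of a genotype about as much as other genes did. Their median within-group SD was 0.66, 0.48 and 0.21 on the log2 scale at the 3 stages in order of development, beside 0.62, 0.43 and 0.17 over all genes tested. Per2 was among the most variable at every stage (SD 1.62, 0.92 and 0.52), and Cry1 among the least (0.37, 0.19 and 0.06).

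Within the 7 mice, levels in reads per M of a library were set side by side across the large stages, as a description. Nr1d1 was lower in large Pre-B than in large Pro-B cells in 7 of 7 mice, by a mean log2 difference of -0.81 ± 0.40 (SD). Cry1 was lower in 7 of 7 (-0.40 ± 0.31), or in 6 with factors set by TMM, and Dbp in 6 of 7 (-0.54 ± 0.71). The other members differed in both directions.

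Per kilobase of exon and M reads, Arntl led in control cells at every stage (59.6 ± 4.4, 69.1 ± 12.8 and 26.1 ± 2.6 in order of development, SD, n = 4, 3 and 3), followed by Cry1 (17.6 ± 2.2, 14.0 ± 1.0 and 22.1 ± 0.7). These ranges did not overlap each other or the next gene at any stage. Below them, in large Pro-B and large Pre-B cells, the ranges of Cry2, Nr1d1, Tef, Dbp and Nr1d2 ran into each other in order of their means (3.67 to 1.31 overall), and the Per genes were lowest, at 0.18 to 0.59. In small Pre-B cells Tef (8.51 ± 0.55) stood above Cry2 (3.58 ± 0.52), Nr1d2 (3.42 ± 0.26) and Dbp (3.30 ± 0.50), and Per3 was lowest at 0.081 ± 0.044. The mice of the small Pre-B libraries were others, so a stage and a set of mice cannot be told apart there.

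Arntl and Clock reads stood at a ratio of 24.5 ± 4.4 in tet-LIN28B and 20.8 ± 3.6 in control small Pre-B cells (SD, n = 3 each), and of 63.1 ± 39.1 and 196 ± 136 in large Pro-B cells (n = 5 and 4). The genotypes overlapped at both stages, in large Pro-B cells only through tet-LIN28B replicate 4 (127), which stood apart. The other tet-LIN28B libraries there were at 28.9 to 71.8 and the controls at 99.5 to 390. That highest value was in control replicate 4, which also stood apart. The ratio was not tested.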

How the data were processed

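The submitters' processing notes name STAR 2.7.1 for alignment to mm10, RSEM 1.28 for quantification and DESeq2 for normalization by the authors. The sources used here do not give the annotation. The signal the authors deposited for a gene is a normalized count, in 1 table per stage. Their deposited comparison tables (base means, log2 fold changes, standard errors, test statistics and p-values) were not used. The value of 1 read was recovered from the low values of each library, and 99.99% to 100% of values in a library were whole reads within 0.1 read. A large Pro-B library held 13.9 to 23.3 M such reads, a large Pre-B library 19.9 to 30.4 M and a small Pre-B library 32.0 to 51.0 M. Without molecular identifiers, PCR reads are not independent molecules.

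Genotypes were compared within a stage by limma 3.58.1 in R 4.3.3 (eBayes with a trend, two-sided) on log2(normalized count + 1), over genes with at least 10 in as many libraries as the smaller group, with Benjamini-Hochberg adjustment over all of these. Fold changes on this scale understate those of low genes. Alternatives were edgeR 4.0.16 and DESeq2 1.42.0 on the recovered reads, pseudocounts of 0.5 and 5, no filter, equal library totals, TMM factors, the replicate number as a block and each library left out. Leaving out both large Pro-B libraries that stand apart was chosen after seeing the data. The fit was tested on simulated data. Exon lengths and shared exon bases rest on unions of GENCODE exons, and coordinates, from RefSeq (GRCm38.p6), span the whole gene. Levels across stages are reads per M reads of a library.

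The members and gene lists were chosen with earlier results of these data known. Named were all 10 members, of the other clock genes every one called and Clock, Nfil3, Bhlhe40, Bhlhe41, Rora, Npas2, Ciart and Usp2, and of the side lists up to 3 called genes a stage. Thra and Sphk2 were named because they overlap members. The study used 2 sequencers without stating which sequenced which library, and that batch was not checked. The labels name a separate mouse for each library of a stage. A marker of the sort gate and some genes are not reported here.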

Additional observations from a re-analysis of the deposited data

Results flagged for a closer look

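In 30 combinations of a member with a genotype group of 4 or 5 libraries, 4 had a value farther from the rest than Dixon's criterion allows. The same libraries recur for every member, so the 30 combinations are not independent. The criterion's chance rate of about 1 of 20 holds for normally distributed values, and it was applied here to normalized counts without a log. Whether 4 exceeds chance therefore cannot be read from that rate. Arntl reached 14541 in tet-LIN28B replicate 4 of large Pro-B cells, where the nearest value was 7423, and 9892 in tet-LIN28B replicate 3 of large Pre-B cells, where the next was 6667. Per3 reached 214 in tet-LIN28B replicate 3 of large Pro-B cells, where the next was 110. Cry1 was at 570 in tet-LIN28B replicate 4 of large Pre-B cells, below 778 in the nearest library. Their causes were not tested.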

How the results depend on the processing

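Of the alternatives, DESeq2 on the recovered reads called 4 genes at the large Pro-B stage and 76 at the large Pre-B stage, against 0 and 8 in limma. In large Pre-B cells edgeR called 0, no filter 15, equal library totals 1, and the replicate number as a block 2 (0 without the block over the same numbers). With single libraries left out, calls ran from 0 to 1 in large Pro-B, from 0 to 23 in large Pre-B and from 1016 to 1965 in small Pre-B cells, where the count with all libraries was 2107. With equal library totals 40.3% of small Pre-B calls were higher, against 51.1%. Of the other clock genes, 7 were called in small Pre-B cells by DESeq2, 5 with equal totals (Bhlhe41 then at an adjusted p of 0.0511), 1 without a filter (Usp2), and 0 to 3 with a library left out. The cause of these shifts was not tested.

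In large Pro-B cells, correlations of same-numbered deviations across genotypes ran from -0.18 to 0.39, and of differently numbered ones from -0.39 to 0.31. In large Pre-B cells they ran from 0.06 to 0.09 and from -0.18 to 0.12. In small Pre-B cells they ran from -0.11 to 0.02 and from -0.08 to 0.09. Whether the replicate numbers pair the mice was not tested. With the block, 0, 2 and 1758 genes were called. Of the member fold changes, 5, 5 and 7 of 10 kept their sign in every alternative at the 3 stages in order of development. In the large stages Per1, Per2, Per3, Dbp, Nr1d1 and Nr1d2 rested on 2 to 396 reads a library, and the part of this depth in their spread was not tested. The median correlation between the large stages of a mouse ran from 0.05 to 0.40 over the members with 1 mouse left out, and was 0.27 as a Spearman rho and 0.30 with equal totals.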

Other observations

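Over all 22 libraries, centred on the mean of their stage and genotype, the genes most like Arntl among 9531 genes were Arl6ip1 (r = 0.94), Zfp277 (0.93), 4930579G24Rik (0.93), Sdcbp (0.91) and Emc3 (0.90), and those least like it were Hivep3 (-0.88), Zfp710 (-0.85) and Chrnb2 (-0.84). Among members, Tef (-0.77) and Nr1d2 (-0.70) ran most opposite to Arntl, whereas Dbp (-0.04) and Nr1d1 (0.13) did not. Without the libraries of tet-LIN28B replicate 4 and control replicate 4 of large Pro-B cells, Tef was at -0.52, Nr1d2 at -0.43 and Arl6ip1 at 0.89. The genes most like Dbp were Neurl4 (0.84), Rapgefl1 (0.84), Ppp1r13b (0.83), 1700010I14Rik (0.83) and A130010J15Rik (0.83), and among those least like it were Stk38l (-0.86) and St7l (-0.80). Without the same libraries, Neurl4 was at 0.63 and Stk38l at -0.74. These correlations share library depth and quality, and are given as a description with no test.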
